A study of Danio rerio with 27 samples.

Results

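The comparison described here set endothelial cells (ECs) against hepatocytes (HEPs) from the livers of control zebrafish, across 18336 genes. It used the 3 libraries of mCherry-positive control cells and the 3 libraries of dsRed-positive control cells, which are 6 of the 27 libraries of the series, and its libraries were picked by the sort and treatment named in the labels. ECs were sorted from the line Tg(kdrl:ras-mCherry), in which the promoter of the vascular receptor gene kdrl drives a membrane-bound mCherry. HEPs were sorted from the line Tg(fabp10a:dsRed), in which the promoter of the hepatocyte fatty acid binding protein gene fabp10a drives dsRed. Both lines were on the AB background, all fish were adult females, and the control fish had 6 intraperitoneal injections over 2 weeks, of sterile water by the labels, although the study's text also calls the control saline. About 100000 fluorescent cells were sorted per library and RNA was sequenced after removal of ribosomal RNA. The rest of the series holds EGFP-positive cells of the line Tg(hand2:EGFP), taken as hepatic stellate cells (HSCs), the cells without reporter of each line, and reporter-positive cells of fish given 500 mg/kg thioacetamide (TAA), a liver toxin, in place of the control injection, so that 9 groups of 3 libraries were compared in all. Each cell type came from its own transgenic line, so cell type, line and sort gate cannot be told apart in the comparison. The labels do not say whether the replicates of a group were separate fish. The study's methods count fewer control fish than reporter-positive control libraries. By that count some replicates of a group share fish, although which ones is not stated. The p-values therefore measure the spread between libraries, which may be partly technical. That spread was estimated over the 6 libraries compared and the 3 control HSC libraries together.

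Liver ECs line the sinusoids, the wide capillaries between the plates of hepatocytes. Their surface receptors for VEGF and angiopoietin keep the vessel wall alive, their junction proteins hold it closed, and the scavenger receptors of sinusoidal cells clear waste proteins from blood. HEPs make most plasma proteins, including lipoproteins, clotting factors and complement, and carry out glucose, amino acid, fatty acid, bile acid and drug metabolism. In an egg-laying female fish they also make vitellogenin, the yolk precursor that the blood carries to the ovary.

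Values were the authors' rlog values, a log2 measure of read counts adjusted for library size in which genes with few reads are drawn towards their mean over the libraries. A difference of 1 is thus a 2-fold change, and differences of weakly expressed genes tend to be understated. Genes with values near or below 0 can still be called, and such calls are uncertain. The values are not scaled to gene length, so only differences between libraries of the same gene were compared. Differences are given as ECs minus HEPs with their standard error (SE), and a gene was called when its limma p-value was under 0.05 after Benjamini-Hochberg adjustment across the 18336 genes. With 3 against 3 libraries the exact two-sided permutation test cannot give less than p = 0.10, which is the value for each gene whose 2 groups do not overlap. The number of reads behind each library is not known from the values. Library medians were 4.01 to 4.07 in control ECs and 3.49 to 3.75 in control HEPs. The median SD of a gene over 3 libraries was 0.32 in ECs and 0.41 in HEPs, and the SD was smaller in ECs for 60.0% of genes.

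Before the comparison, the driver gene of each reporter was read in the libraries as a check of the labels. kdrl (ENSDARG00000105215) was 12.74, 12.78 and 12.51 in the 3 control EC libraries, against 6.36, 6.03 and 6.16 in the 3 control HEP libraries, a difference of 6.49 (SE 0.54, adjusted p = 1.7e-06). fabp10a (ENSDARG00000038439) was 11.66, 10.45 and 10.44 in control ECs, against 14.12, 13.58 and 13.80 in control HEPs, a difference of -2.98 (SE 0.33, adjusted p = 1.3e-05). Both control groups thus had the driver gene of their own reporter at a higher level than the other group, with no overlap. Against cells without reporter this did not hold for fabp10a. It was 13.43, 13.87 and 13.91 in dsRed-negative control cells, which overlaps the HEP values, so by this gene the dsRed sort showed no enrichment. The study reports that reads of the fluorescent reporters themselves were strongly enriched in the positive samples. The libraries labelled as TAA ECs did not have kdrl at the higher level. Their kdrl values were 2.05, 2.64 and 2.07, below the 5.62, 4.44 and 4.30 of the TAA HEP libraries. Among the cells without reporter, replicate 1 of the mCherry-negative group stood apart, with kdrl at 9.44 against 5.34 and 6.79 in replicates 2 and 3.

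Control ECs and control HEPs differed at 7885 of the 18336 genes. Of these, 4758 (25.9% of all genes) were higher and 3127 (17.1%) were lower in ECs. The values of the 2 groups did not overlap at 6466 genes with ECs higher (35.3%) and at 4458 genes with ECs lower (24.3%). The largest differences ran further on the endothelial side, since 79 called genes were higher in ECs by 6 or more and 2 called genes were lower by 6 or more. At a limit of 4, the counts were 492 higher and 187 lower. The median difference over all genes was 0.27, so ECs were set slightly higher as a whole, and 60.3% of the calls were higher in ECs. With every library centred on its own median, each difference falls by 0.40, the median over all genes becomes -0.13 and 42.0% of the calls are higher in ECs. Of the 4758 genes called higher, 3221 were also called higher after centring, the 3127 genes called lower were also called lower, and no gene was called in opposite directions.

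**Figure D1:**
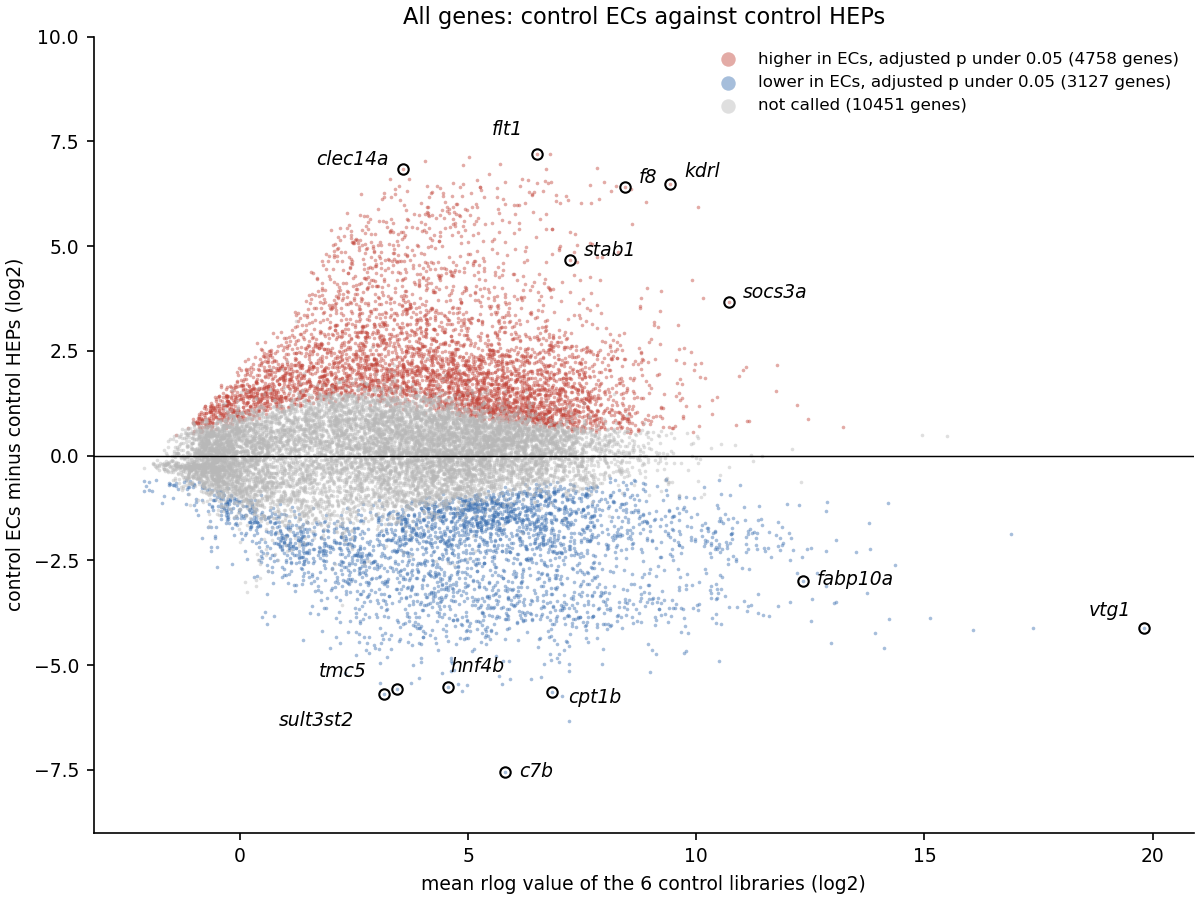
Difference between control ECs and control HEPs (log2) against the mean rlog value of the 6 libraries, with 1 point per gene. Red points mark the 4758 genes called higher in ECs, blue points the 3127 called lower and grey points the rest, and the named genes reach 7.21 for flt1 and -7.56 for c7b.

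The 10 genes with the largest positive differences were mostly receptors and adhesion molecules of vessels. flt1, a receptor that binds VEGF, averaged 10.11 ± 0.083 in ECs and 2.90 ± 0.56 in HEPs (SD, n = 3 each, with no overlap), a difference of 7.21 (SE 0.37, adjusted p = 2.1e-07). The next were dchs1b, a large protocadherin (7.19), notchl (7.14), the unnamed gene si:ch211-145b13.6 (7.04), emilin2a, an elastic fibre glycoprotein (6.97), and ackr3b, a scavenging chemokine receptor (6.95). fgd5a, an exchange factor for a small GTPase (6.87), sele, the adhesion molecule E-selectin (6.84), clec14a (6.84) and pcdh17, a protocadherin (6.71), completed the set. HEP values spread more widely than EC values for dchs1b, with 10.70, 10.42 and 10.08 in ECs, against 1.71, 3.24 and 4.67 in HEPs. The gene just outside the set was mb, myoglobin, at 6.60. Among genes without a symbol, ENSDARG00000117238 and ENSDARG00000117431 were the highest, with EC means of 8.46 and 9.81.

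On the other side, c7b had the largest difference. This terminal complement component was 0.84, 1.51 and 3.74 in ECs, against 10.41, 9.97 and 8.38 in HEPs, a difference of -7.56 (SE 0.71, adjusted p = 3.7e-06). EC replicate 3 was the highest and HEP replicate 3 the lowest of their groups, and the groups still lay more than 4 units apart. It was followed by zgc:162608 (-6.32), the transcriptional repressor zbtb16b (-5.72), the sulfotransferase sult3st2 (-5.69), the carnitine palmitoyltransferase cpt1b (-5.64), the thioesterase acot16 (-5.61) and tmc5 (-5.58). The nuclear receptor hnf4b (-5.52), the plakophilin pkp3a (-5.47) and srd5a2a, a steroid reductase (-5.46), came next, with pcyt1bb just outside at -5.44. hnf4b was among the most even, at 2.17, 1.66 and 1.58 in ECs, against 7.44, 7.32 and 7.20 in HEPs.

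Vessel genes were then read by function, beginning with surface and junction proteins. Every count of called list genes stands beside 25.9% of all genes called higher and 17.1% called lower. Of 35 listed genes 32 were measured, and 31 of these were higher in ECs and 0 lower, with a median difference of 5.52 beside 0.27 over all genes. cdh5, the VE-cadherin that joins neighbouring ECs, was 10.89, 11.12 and 10.71 in ECs, against 4.17, 4.66 and 4.50 in HEPs, a difference of 6.47 (SE 0.30, adjusted p = 1.4e-07). pecam1, another junction molecule, differed by 6.27 and egfl7, a secreted vessel factor, by 6.41. clec14a was at 7.24, 7.12 and 6.59 in ECs, against 0.28, 0.06 and 0.09 in HEPs, so that HEPs were close to 0. cd34, a sialomucin of vessel surfaces, was 8.23, 8.13 and 7.42 in ECs, against 0.88, 1.39 and 1.96 in HEPs. The exception was jam2b, a junction adhesion molecule, with a difference of -0.38 that was not called.

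**Figure D2:**
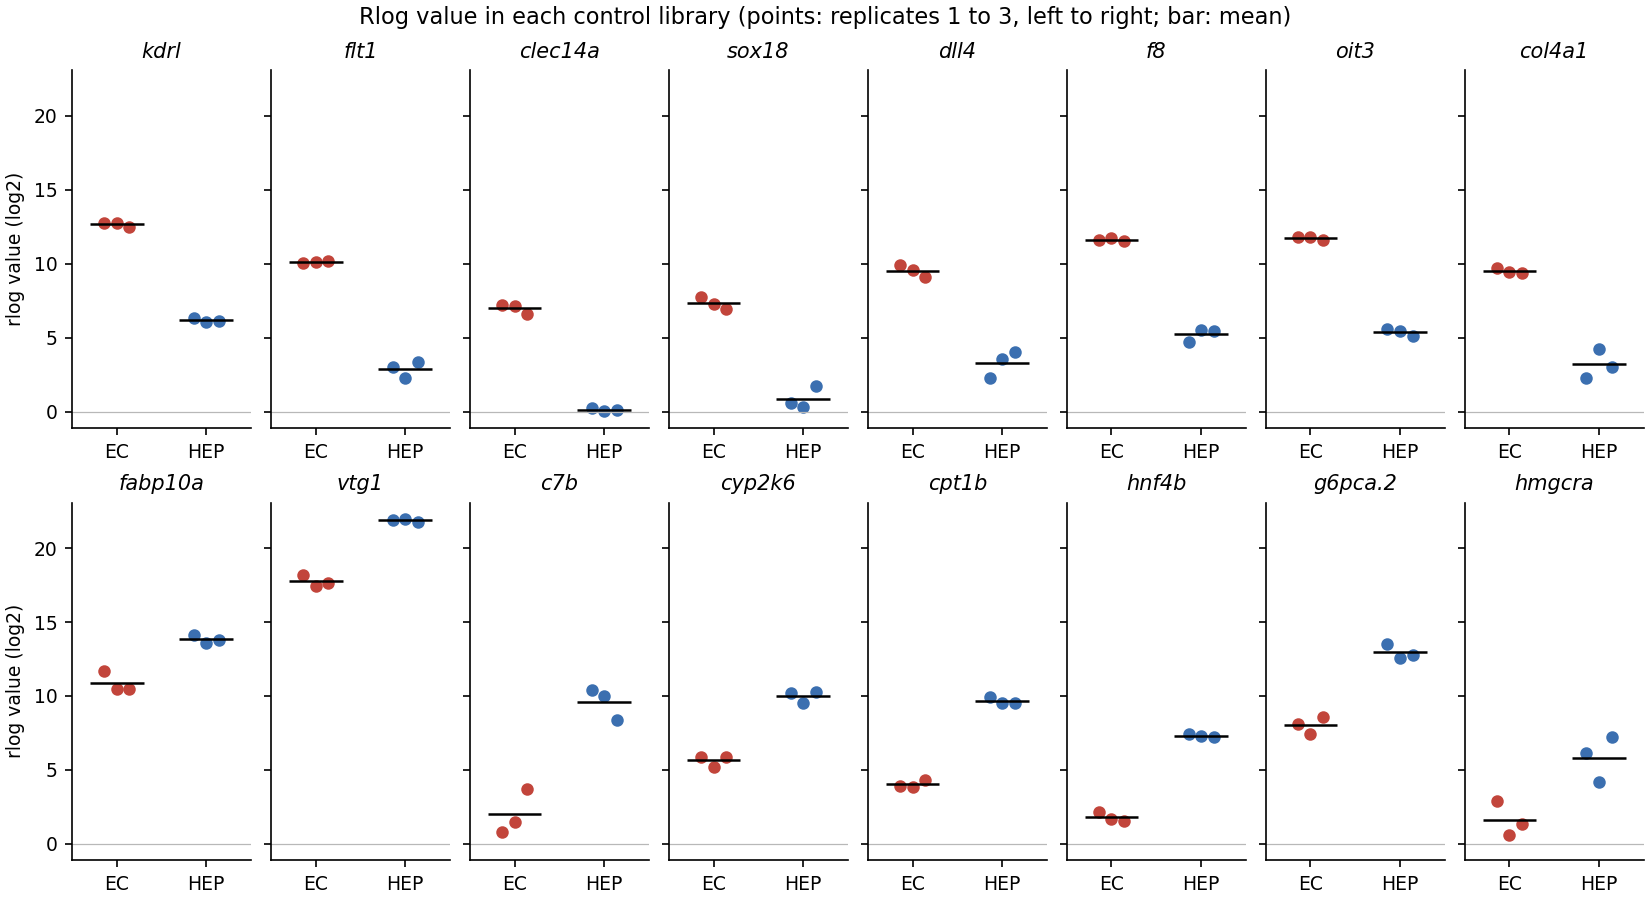
Rlog value (log2) of 16 genes in each control library, with ECs left of HEPs in each panel, points for replicates 1 to 3 and a bar for the mean. The upper panels are vessel genes, where ECs lie above HEPs without overlap, as for clec14a with 6.59 or more in ECs and 0.28 or less in HEPs. The lower panels are genes of hepatocyte functions, where ECs lie below HEPs, with the widest spread in hmgcra and c7b.

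The VEGF and angiopoietin systems, with their receptors and ligands, were mostly higher in ECs. The 4 VEGF receptor genes of the list were higher in ECs, namely flt1 (7.21), flt4 (6.59), kdrl (6.49) and kdr (6.03). flt4 was 9.65, 9.80 and 9.36 in ECs, against 2.18, 3.47 and 3.38 in HEPs. tek, the angiopoietin receptor, differed by 5.53 (SE 0.67) and tie1, its partner, by 4.86 (SE 0.51). Among ligands, angpt2a (5.54) and VEGFC (3.51) were higher in ECs as well, and the list held 9 higher and 1 lower of 11 measured genes. The gene that was lower was vegfba, a VEGF ligand, at 3.999, 2.80 and 2.85 in ECs, against 7.37, 7.80 and 7.46 in HEPs, a difference of -4.32 (SE 0.34, adjusted p = 1.3e-06). ANGPT1, the other angiopoietin measured, was not called (-0.27).

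Of 14 measured genes of the Notch pathway, through which neighbouring cells set arterial and sprouting identity, 8 were higher and 1 lower in ECs, with a median of 2.09. The ligand dll4 was 9.91, 9.60 and 9.10 in ECs, against 2.29, 3.54 and 4.01 in HEPs (difference 6.25, SE 0.48, adjusted p = 1.1e-06). notch1b, a receptor, was 11.23, 11.09 and 10.52 in ECs, against 4.36, 4.91 and 5.15 in HEPs, a difference of 6.14. notchl (7.14) and LFNG, a glycosyltransferase that modifies Notch receptors (5.49), had differences of like size. The ligands were not alike in direction: jag2b was higher (3.72), while jag1b was 4.41, 4.06 and 3.52 in ECs, against 5.70, 5.94 and 6.02 in HEPs (difference -1.89, SE 0.40, adjusted p = 0.0020). HEY1, a Notch target, was not called at 0.55.

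Transcription factors of the endothelial lineage were higher in ECs at 16 of 19 measured genes and lower at 0, with a median of 4.35. sox18 was 7.72, 7.29 and 6.96 in ECs, against 0.55, 0.31 and 1.76 in HEPs (difference 6.45, SE 0.52, adjusted p = 1.4e-06). fli1a (6.34), erg (6.27) and etv2 (6.26), which are ETS factors of vessel and blood development, were close to it in size. erg was 6.69, 6.25 and 5.91 in ECs, against 0.15, -0.06 and -0.03 in HEPs, and was thus near 0 in each HEP library. klf2a, which responds to blood flow, was 9.84, 10.08 and 9.96 in ECs, against 1.84, 4.89 and 4.91 in HEPs, and thus had even EC values and an uneven HEP group. NR2F2, a venous factor, differed less (2.02), and ets2, hhex and FOXF1 were not called.

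Scavenging, transport and clotting genes of sinusoidal and other ECs were higher at 13 of 16 measured members and lower at 0 (median 3.19). cyp26b1, which breaks down retinoic acid, had the largest difference (6.59, SE 0.56), at 8.95, 8.26 and 8.27 in ECs, against 0.96, 3.23 and 1.51 in HEPs. f8, the clotting factor VIII, was 11.63, 11.74 and 11.53 in ECs, against 4.72, 5.49 and 5.49 in HEPs (difference 6.41, SE 0.53, adjusted p = 1.7e-06). oit3 (6.37) and ehd3 (6.05), 2 genes enriched in mammalian sinusoidal ECs, were close behind. The scavenger receptors stab1 (4.66) and stab2 (2.65) were both higher, with stab2 at 3.10, 3.52 and 2.29 in ECs, against -0.04, -0.18 and 1.19 in HEPs. vwf, the platelet-binding von Willebrand factor, differed by 2.95 and thbd, thrombomodulin, by 2.12. The mannose receptor mrc1b was not called, with 8.82, 9.09 and 9.82 in ECs, against 8.04, 8.50 and 8.84 in HEPs, nor was dab2 (-1.28).

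Of 18 measured genes of the vessel basement membrane and matrix, 12 were higher and 1 was lower in ECs (median 3.76). emilin2a led with 9.15, 9.27 and 9.13 in ECs, against 1.18, 2.44 and 3.03 in HEPs. Both chains of collagen IV, the net of the basement membrane, were higher, with col4a1 at 9.70, 9.41 and 9.36 in ECs, against 2.30, 4.24 and 3.04 in HEPs (difference 6.30, SE 0.62), and with col4a2 differing by 5.62. ndnf (6.00), fbln2 (5.93) and igfbp7 (5.41), secreted matrix proteins, had similar differences. fbln5, a fibulin of elastic fibres, went the other way, at 4.27, 3.60 and 3.31 in ECs, against 6.99, 7.16 and 7.15 in HEPs (difference -3.37, SE 0.37, adjusted p = 1.2e-05). LAMA5, sparc, mmp14a, mmp2 and emilin1a were not called.

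Genes of secreted plasma proteins were lower in ECs as a group and by amounts that lay close together. Of 39 measured carriers and apolipoproteins 37 were lower and 1 was higher (median -3.49), with quartiles of -3.82 and -3.20. apoa2, an apolipoprotein of high-density lipoprotein, was 10.44, 9.56 and 10.02 in ECs, against 13.91, 13.34 and 13.51 in HEPs (difference -3.58, SE 0.31, adjusted p = 2.2e-06). The largest differences of the list were at apof (-4.53), lcat, which esterifies cholesterol in plasma (-4.34), the haemoglobin binder hp (-4.19) and MTTP, which loads lipid onto lipoproteins (-4.08). hp was also the most uneven, at 2.13, 0.60 and 4.55 in ECs, against 6.86, 5.61 and 7.38 in HEPs (SE 1.01, adjusted p = 0.0047), and a second gene of the same symbol differed by -3.32. serpina10a, a protease inhibitor, was the gene that was higher, at 6.92, 6.77 and 6.78 in ECs, against 3.43, 4.18 and 4.89 in HEPs.

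Genes of the complement list were lower in ECs at 29 of 33 measured members and higher at 1, with a median of -3.17. Besides c7b, the largest differences of the list were at crp2 (-4.06), c4 (-3.84) and masp2, a protease of the lectin pathway (-3.81). crp2, a C-reactive protein gene and not itself a complement component, was uneven in ECs, at 3.76, 0.36 and 1.68. c4 was 7.56, 6.91 and 7.07 in ECs, against 11.64, 10.89 and 10.53 in HEPs. The 2 genes for component C7 were unlike each other, since c7a was 3.94, 3.84 and 3.15 in ECs, against 3.54, 2.34 and 2.06 in HEPs and was not called. cfd, the factor D protease that starts the alternative pathway, was higher in ECs by 3.10 (SE 0.45, adjusted p = 1.2e-04). Clotting factors and their inhibitors gave 22 lower and 1 higher of 23, with a median of -3.60 and quartiles of -3.75 and -3.31. Their largest differences were at the heparin cofactor serpind1 (-4.02), the protease inhibitor a2ml (-3.96), proca, a protein C gene (-3.96), and prozb, a protein Z gene (-3.95). The fibrinogen genes fga, fgb and FGG differed by -3.60, -3.74 and -3.80, and fgb was 9.98, 8.85 and 9.62 in ECs, against 13.42, 13.22 and 13.04 in HEPs. serpinf1, an antiangiogenic serpin, was the clotting-list gene that was higher (3.41).

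Vitellogenins were lower in ECs by similar amounts. vtg1 was 18.16, 17.46 and 17.62 in ECs, against 21.87, 21.98 and 21.74 in HEPs (difference -4.12, SE 0.62, adjusted p = 1.5e-04). vtg6 (-4.59), vtg3 (-4.24) and vtg5 (-4.16) were next, and the 7 vitellogenins measured were called lower, with the smallest difference -3.87 at vtg4. Near-identical copies among them can share reads, so the separate values of such copies are uncertain. The 2 zona pellucida genes of the list were not called, and zp3.2 was at 5.96 in HEP replicate 3, beside 0.47 and -0.72 in the other 2 HEP libraries.

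Of the cytochromes P450 and conjugation enzymes, which oxidise drugs and tag them for excretion, 33 of 39 were lower and 2 were higher in ECs (median -3.15). The sulfotransferases sult3st2 (-5.69) and sult3st3 (-5.19) and the quinone reductase nqo1 (-4.71) had the largest differences. nqo1 was 0.45, 0.32 and 0.63 in ECs, against 5.42, 5.16 and 4.96 in HEPs, and was thus low in each EC library. cyp2k6 averaged 5.64 ± 0.37 in ECs and 9.98 ± 0.41 in HEPs (SD, n = 3 each) (difference -4.34, SE 0.30, adjusted p = 6.9e-07). The exceptions were higher in ECs, the sulfotransferase sult1st1 (2.29, SE 0.30) and the glutathione transferase gstm.3 (1.70, SE 0.51). Genes of bile acid synthesis and transport were more mixed, with 12 lower and 1 higher of 19 (median -1.77). kl, a co-receptor of endocrine growth factors (-4.13), slc27a2b, a fatty acid and bile acid ligase (-3.99), the organic anion transporter slco1d1 (-3.97) and nr1h4, the bile acid receptor (-3.82), were lower, as was cyp7a1, the rate-limiting enzyme of bile acid synthesis, at 5.95, 4.96 and 5.22 in ECs, against 8.45, 9.02 and 8.06 in HEPs. HSD3B7, a later enzyme of that pathway, was higher in ECs, at 8.75, 8.26 and 7.82, against 5.68, 5.72 and 5.58 in HEPs (difference 2.62, SE 0.42, adjusted p = 2.5e-04).

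Central metabolism was lower in ECs in each of its branches. Of 25 measured genes of carbohydrate metabolism 20 were lower and 0 higher (median -3.50), led by pdk2a, which switches off pyruvate oxidation (-4.97), g6pca.2, a glucose 6-phosphatase that releases glucose (-4.91), and pcxb, pyruvate carboxylase (-4.89). g6pca.2 was 8.10, 7.43 and 8.56 in ECs, against 13.52, 12.56 and 12.74 in HEPs. PCK1, the key enzyme of glucose production, differed by -4.66 and its HEP values spread from 11.17 to 13.11. Glucokinase, gck, was not called, with its values in the 2 groups overlapping around 0. Of 34 measured genes of amino acid catabolism 32 were lower and 0 higher (median -3.31), with gls2b, a liver glutaminase, at 0.15, 0.02 and 0.34 in ECs, against 4.97, 4.81 and 5.03 in HEPs (difference -4.76, SE 0.56). agxtb (-4.70), hal, which degrades histidine (-4.34), and tdo2b, which degrades tryptophan (-4.33), were next.

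Fatty acid oxidation and lipid storage genes were lower at 30 of 32 measured members and higher at 0 (median -2.49). cpt1b, which admits fatty acids to mitochondria, was 3.88, 3.84 and 4.34 in ECs, against 9.94, 9.51 and 9.54 in HEPs (difference -5.64, SE 0.26, adjusted p = 1.4e-07). soat2, which makes cholesteryl esters, was 2.87, 2.34 and 1.31 in ECs, against 6.88, 7.47 and 7.002 in HEPs (difference -4.94, SE 0.66, adjusted p = 5.8e-05). ppargc1a, a coactivator of oxidative metabolism, differed by -4.89. Among hepatocyte transcription factors and hormone receptors, 26 of 31 were lower and 2 were higher (median -3.18). igfbp1b, a growth factor binding protein (-4.99), esr2b, an oestrogen receptor (-4.44), and igf1 (-4.19) followed hnf4b. HNF4A, the master regulator of hepatocyte genes, was 5.69, 4.79 and 5.13 in ECs, against 8.71, 8.71 and 8.61 in HEPs, a smaller difference (-3.48) than that of its paralogue hnf4b. CEBPA was higher in ECs, at 8.03, 8.24 and 8.33, against 7.23, 6.75 and 7.13 in HEPs (difference 1.16, SE 0.24), although its product also acts in hepatocytes, and creb3l3l differed by 1.84.

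**Figure D3:**
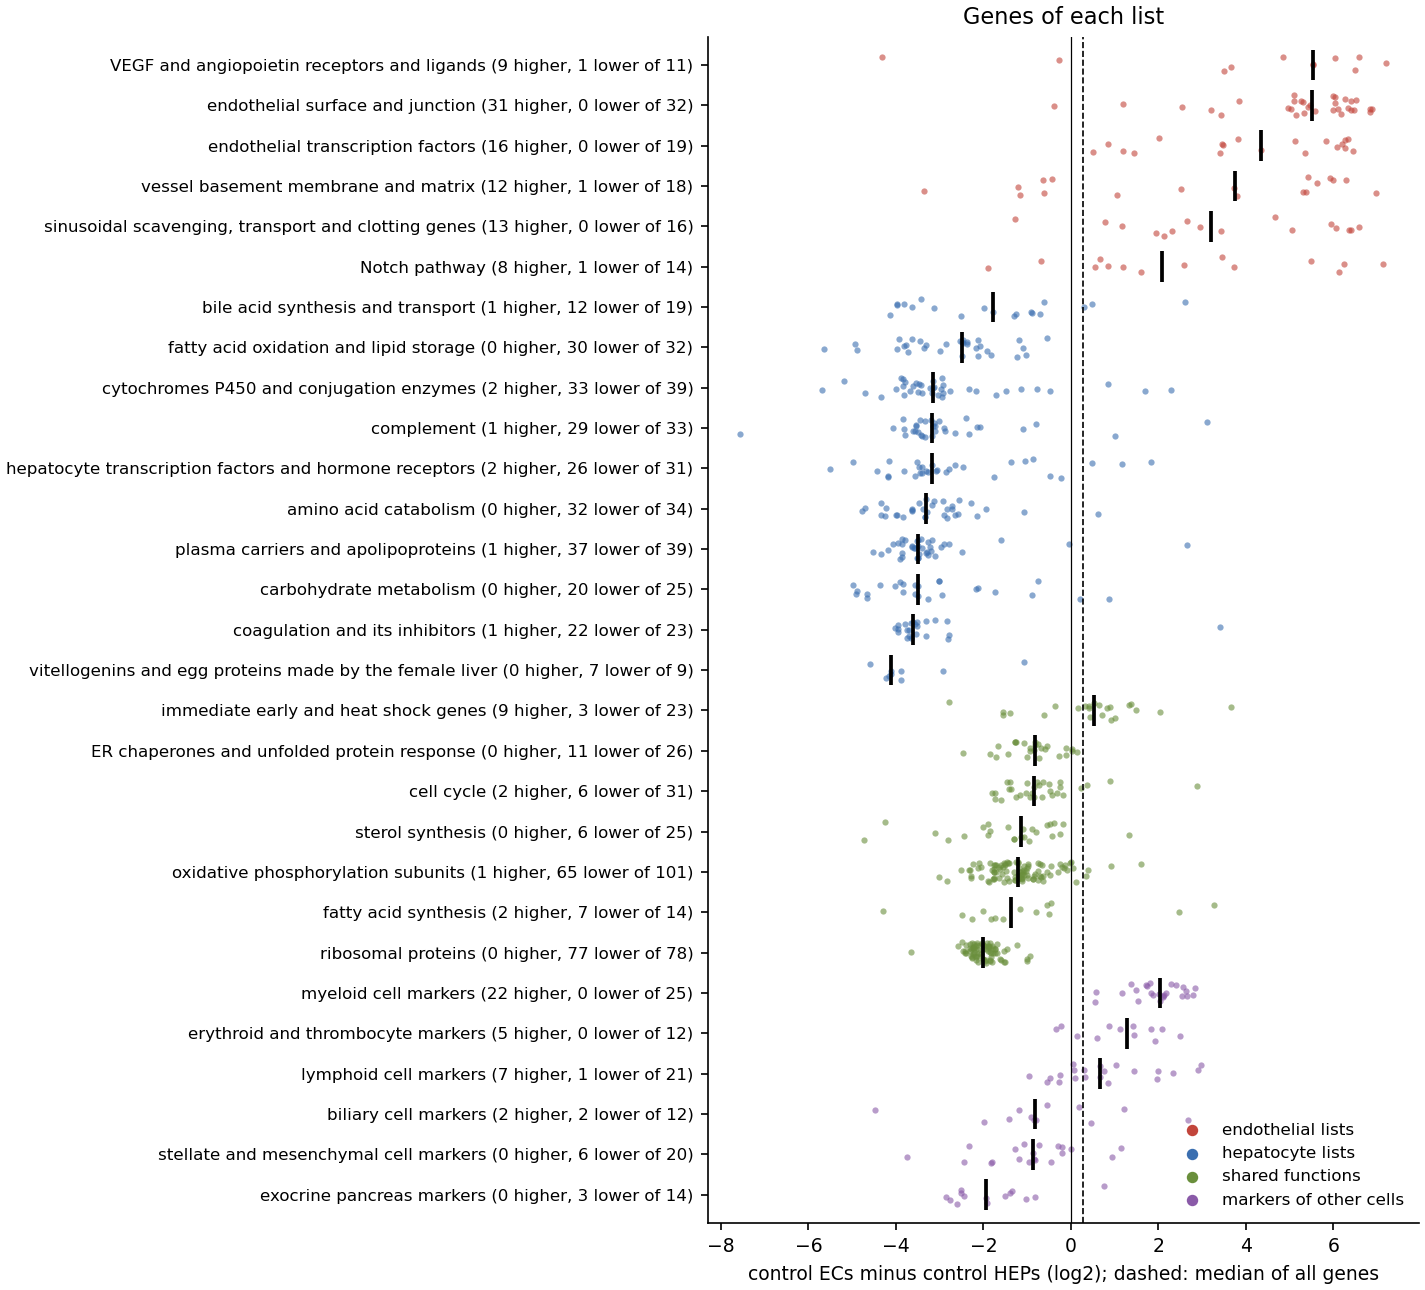
Differences between control ECs and control HEPs (log2) for the genes of 29 lists, with 1 point per gene, a bar at the list median and the counts of called genes in the labels. The dashed line is the median of all genes, 0.27. The 6 endothelial lists have medians of 2.09 to 5.53 and the 10 hepatocyte lists medians of -4.10 to -1.77.

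Over the 6 endothelial lists together, 89 of 110 genes were higher and 3 were lower in ECs (median 5.10), beside 25.9% and 17.1% of all genes. Over the 10 hepatocyte lists, 245 of 281 genes were lower and 8 were higher (median -3.32), beside 17.1% and 25.9% of all genes. The 2 sides also differed in shape, with quartiles of 2.16 and 6.07 for the endothelial list genes and of -3.80 and -2.47 for the hepatocyte list genes. Hepatocyte transcripts were present in the EC libraries, and most in 1 of them: the mean value of the 281 genes was 5.62, 4.83 and 5.12 in EC replicates 1, 2 and 3, against 8.31, 8.02 and 7.93 in the HEP libraries. In dsRed-negative control cells that mean was 8.01, 7.90 and 7.90, close to the HEP libraries. EC replicate 1 was the highest of the 3 EC libraries for 204 of these 281 genes (72.6%), beside 37.9% of all genes. The endothelial list mean was 6.95, 6.82 and 6.66 in ECs, against 2.55, 2.89 and 3.13 in HEPs, and HEP replicate 3 was the highest HEP library for 52 of the 110 genes (47.3%), beside 33.6% of all genes. In dsRed-negative cells the endothelial list mean was 4.96, 4.88 and 4.96, above each HEP library. The mean of myeloid markers there was 5.75, 4.92 and 5.63, which overlaps the 5.50, 6.09 and 6.60 of HEPs. In such bulk libraries, fewer cells of a type and less RNA per cell cannot be told apart. The part of cells of the other type, or of free RNA, in the differences was not tested. Without EC replicate 1 the counts over all genes were 4034 higher and 2695 lower.

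Lipid and sterol synthesis, which many cell types carry out, gave fewer calls. Of 25 measured sterol genes 6 were lower and 0 higher in ECs (median -1.15), and of 14 fatty acid synthesis genes 7 were lower and 2 higher (median -1.36). The share of sterol genes called lower was not far above the 17.1% of all genes. By overlap the list stood further from all genes. The 2 groups did not overlap at 14 of the 25 with ECs lower and at 1 with ECs higher, beside 24.3% and 35.3% of all genes. After centring, 11 sterol genes were called lower and 0 higher, beside 4456 lower of all 18336 genes. ldlra, the receptor for low-density lipoprotein, was 7.14, 6.14 and 6.99 in ECs, against 11.99, 11.42 and 11.06 in HEPs (difference -4.74, SE 0.35). hmgcra, the rate-limiting enzyme of sterol synthesis, varied more, at 2.89, 0.57 and 1.33 in ECs, against 6.14, 4.16 and 7.23 in HEPs (difference -4.24, SE 1.01, adjusted p = 0.0044). cyp51 (-1.30, SE 0.79, adjusted p = 0.20) and hmgcs1 (-1.10, SE 0.98, adjusted p = 0.39), enzymes of the same pathway, were not called, although their values did not overlap between the groups. The spread in the fit takes in the control HSC libraries, where hmgcs1 was 5.38, 7.06 and 10.92. fasn, the fatty acid synthase, was 7.45, 6.83 and 7.41 in ECs, against 8.63, 8.47 and 8.11 in HEPs (difference -1.17, SE 0.34, adjusted p = 0.013), and without EC replicate 2 or HEP replicate 1 it was no longer called (adjusted p = 0.058 and 0.052). elovl2, an elongase of long fatty acids, was lower (-4.30), while its relative ELOVL6 (2.46) and the malic enzyme ME1 (3.26) were higher in ECs.

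Ribosomal protein genes were lower in ECs almost throughout. Of 78 measured genes 77 were lower and 0 higher, with a median of -2.01 and quartiles of -2.22 and -1.82. RPL5 was 11.04, 10.58 and 10.83 in ECs, against 13.40, 13.40 and 13.13 in HEPs (difference -2.49, SE 0.26, adjusted p = 6.7e-06). rpl22l1, a paralogue of a ribosomal protein, lay apart from the rest at -3.65. After centring, the median was -2.41 and the same count, 77, was called lower. Subunits of oxidative phosphorylation, the mitochondrial energy chain, gave 65 lower and 1 higher of 101 (median -1.198), with 1 of 3 genes named COX5B (-3.01) and uqcrc2a (-2.84) the largest. Chaperones of the endoplasmic reticulum, which fold secreted proteins, were lower at 11 of 26 and higher at 0 (median -0.83), beside 17.1% and 25.9% of all genes. P4HB was 9.65, 9.56 and 9.72 in ECs, against 12.13, 12.24 and 11.93 in HEPs.

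Immediate early and heat shock genes, which rise within minutes of stress and during tissue dissociation, were mixed. Of 23 measured 9 were higher and 3 lower (median 0.54), beside 25.9% and 17.1% of all genes. socs3a, a brake on cytokine signalling, was 12.59, 12.63 and 12.45 in ECs, against 9.07, 8.72 and 8.88 in HEPs (difference 3.67, SE 0.33, adjusted p = 2.7e-06). FOSB was higher by 2.04, whereas ATF3 was 5.45, 4.97 and 5.24 in ECs, against 8.33, 7.71 and 8.004 in HEPs (difference -2.79, SE 0.35). After centring, 5 were called higher and 4 lower, beside 3221 higher and 4456 lower of all 18336 genes. Of 31 cell cycle genes 2 were higher and 6 lower (median -0.84), and the share called lower was near the 17.1% of all genes. After centring, 13 were called lower and 1 higher. The groups did not overlap at 14 with ECs lower and at 2 with ECs higher, beside 24.3% and 35.3% of all genes. mki67 and PCNA, which mark dividing cells, were not called. The called members were few and uneven, as for 1 of 2 genes named nuf2 at 6.80, 6.81 and 6.99 in ECs, against 2.65, 4.05 and 5.24 in HEPs.

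Markers of other liver and blood cells were read in the same libraries. Myeloid markers were higher in ECs at 22 of 25 measured genes and lower at 0, beside 25.9% and 17.1% of all genes. Their median difference was 2.04, with none above 2.85. csf1ra, the macrophage growth factor receptor, was 10.77, 10.47 and 10.86 in ECs, against 7.49, 8.75 and 8.97 in HEPs (difference 2.29, SE 0.34), and the complement gene c1qa of macrophages differed by 2.85. The mean of the list was 7.98, 7.88 and 8.21 in ECs, against 5.50, 6.09 and 6.60 in HEPs, and HEP replicate 3 had the highest mean of the HEP libraries, as it did for the endothelial lists. Of 21 lymphoid markers 7 were higher and 1 lower (median 0.66), near the 25.9% of all genes that were higher, and 5 were higher and 3 lower after centring. IKZF1 (2.97) and cd4-1 (2.90) were the largest, while the B cell gene cd79a and the T cell gene lck were low in both groups. Of 12 erythroid and thrombocyte markers 5 were higher and 0 lower (median 1.27), beside 25.9% and 17.1% of all genes, and 4 were higher and 1 lower after centring. The haemoglobin gene hbaa1 was 3.60, 5.81 and 5.25 in ECs, against 2.81, 1.58 and 2.78 in HEPs. hbaa1 was no longer called without EC replicate 2 (adjusted p = 0.057). The part of leukocytes in the differences between ECs and HEPs was not tested.

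Stellate and mesenchymal markers were low in both groups, with 0 higher and 6 lower of 20 measured (median -0.86), beside 25.9% and 17.1% of all genes. The list mean was 0.29 to 0.65 in ECs, against 1.28 to 1.502 in HEPs. The group mean was 0 or below at 10 of the 20 genes in ECs and at 3 in HEPs, so these differences are uncertain. hand2, the driver gene of the HSC line, was -0.69, -0.73 and -0.63 in ECs, against -0.14, -0.29 and -0.27 in HEPs, below 0 in each library. The fibrillar collagens col1a1a (-2.33), col1a2 (-1.83) and col5a2a (-1.81) were lower in ECs, and each lost its call in 4 of the fits that left out 1 library. Biliary markers gave 2 higher and 2 lower of 12 (median -0.82), no more than the 25.9% and 17.1% of all genes, with tm4sf4 at -4.48 and krt15 at 2.68. Exocrine pancreas markers, mostly digestive enzymes, were lower at 3 of 14 genes and higher at 0 (median -1.93). The share lower was near the 17.1% of all genes. The spread between libraries was wide: try was 0.37, 5.60 and 5.30 in ECs, against 7.80, 4.38 and 6.46 in HEPs, and was not called. The list mean was 0.38 in EC replicate 1, beside 3.22 and 2.86 in the other EC libraries, and ran from 2.34 to 5.27 in HEPs.

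The control HSC libraries gave a second group to set the EC values against, sharing the same EC libraries. Their kdrl values were 5.56, 6.07 and 3.18, and fabp10a was 13.95, 14.38 and 13.74, within the range of or above the HEP libraries, and the hepatocyte list mean was 8.12, 8.17 and 7.48, so the HSC libraries also held hepatocyte RNA. For vessel genes, flt1 was at 8.06 for ECs minus HSCs and 7.21 for ECs minus HEPs, and f8 at 8.33 and 6.41. c7b was 3.28, 3.99 and 2.44 in HSCs, and its difference was -1.21 for ECs minus HSCs, which was not called (limma, adjusted p = 0.18), and -7.56 for ECs minus HEPs. The differences from HSCs of tm4sf4 (-0.68, adjusted p = 0.15) and soat2 (-1.67, adjusted p = 0.054) were not called either, beside -4.48 and -4.94 from HEPs, while that of cpt1b was called (-2.69, beside -5.64 from HEPs). hmgcra had the larger difference from HSCs, with -7.30, beside -4.24 from HEPs.

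The reporter-negative cells of the same 2 lines were also a product of the sort, with mCherry-positive cells removed from the one and dsRed-positive cells from the other, so their contrast is not one of lines alone. mCherry-negative minus dsRed-negative control cells differed at 91 genes, 45 higher (0.245% of all genes) and 46 lower (0.251%), and 1869 genes had an unadjusted p under 0.05 in limma. The difference between the positive and the negative contrast, tested as an interaction, was higher at 1782 genes (9.72%) and lower at 1359 (7.41%). This test took the positive and negative libraries of a line as independent, although they may share fish, and with same-numbered libraries of a line taken as pairs it was higher at 1599 genes and lower at 1549. kdrl was 9.44, 5.34 and 6.79 in mCherry-negative cells, against 9.73, 9.43 and 9.96 in dsRed-negative cells, and the contrast was larger in the positive cells by 9.01 (adjusted p = 5.5e-04). fabp10a was 14.63, 14.32 and 14.27 in mCherry-negative cells, against 13.43, 13.87 and 13.91 in dsRed-negative cells, and its interaction of -3.65 was not called (adjusted p = 0.15). Of the 127 genes named by rule, 3 were called between the negative groups: cpt1b, ATF3 and fosl1a. Genes not called there could still differ. c7b was 4.02, 6.68 and 8.50 in mCherry-negative cells, against 10.76, 9.72 and 8.58 in dsRed-negative cells. Its difference there was -3.28 (limma, adjusted p = 0.28), and its interaction was not called (adjusted p = 0.065). For srd5a2a, in contrast, the difference between the negative groups was -0.10. cpt1b was 4.33, 5.24 and 5.72 in mCherry-negative cells, against 9.64, 9.23 and 9.39 in dsRed-negative cells, a difference of -4.32 (SE 0.37, adjusted p = 1.4e-05) beside -5.64 in the positive cells, so most of its difference was also present between the 2 lines' cells without reporter. Of the 46 genes lower in mCherry-negative cells, 37 (80.4%) were also lower in ECs, beside 17.1% of all genes, and they are 1.18% of the genes lower in ECs. Of the 45 higher ones 11 (24.4%) were also higher in ECs, or 0.231% of those, a share near the 25.9% of all genes. The counts between the negative groups depended on single libraries, with 58 higher and 98 lower without mCherry-negative replicate 1, and 147 higher and 264 lower without replicate 3 of the EGFP-negative control cells, which shares the fit and stood apart from its group. Without that EGFP-negative library the interaction was higher at 2905 genes and lower at 2251.

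Under TAA the contrast between the same 2 sorts was much smaller. The libraries labelled as TAA ECs minus the TAA HEP libraries differed at 225 genes higher (1.23% of all genes) and 514 genes lower (2.8%). Centring gave 387 higher and 472 lower, the fit without TAA HEP replicate 1 gave 138 higher and 356 lower, and that without TAA HEP replicate 2 gave 140 higher and 337 lower. Of the 4758 genes higher in control ECs, 35 (0.736%) were higher under TAA and 339 were lower, and those 35 were 15.6% of the 225. Of the 3127 genes lower in control ECs, 54 (1.73%) were lower under TAA and 114 were higher, and those 54 were 10.5% of the 514. The change in the contrast from control to TAA, tested as an interaction, was positive at 2927 genes (16.0%) and negative at 4565 (24.9%). It was negative at 4017 (84.4%) of the genes higher in control ECs and positive at 2554 (81.7%) of the genes lower in control ECs. The interaction uses the same control libraries as those calls, so these shares are no independent evidence.

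The endothelial lists were low in the libraries labelled as TAA ECs. Their mean over 110 genes was 1.52, 1.72 and 1.56 in those libraries, against 2.46, 2.28 and 1.89 in TAA HEPs. cdh5 had a difference of -1.79 between the 2 TAA groups, beside 6.47 in controls. The hepatocyte list mean was 8.80, 8.72 and 8.47 in the libraries labelled as TAA ECs, against 8.29, 8.26 and 8.39 in TAA HEPs. Myeloid markers were at 1.31, 1.64 and 1.60 there, against 4.02, 4.36 and 4.14 in TAA HEPs. The libraries labelled as TAA ECs thus lacked the high vessel gene levels of control ECs, and the TAA contrast is given here by label. The study reads the fall of vessel genes as a response of ECs to TAA, and also reports less accessible chromatin at the kdrl promoter. Whether the ECs changed or other cells were sorted was not tested.

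**Figure D4:**
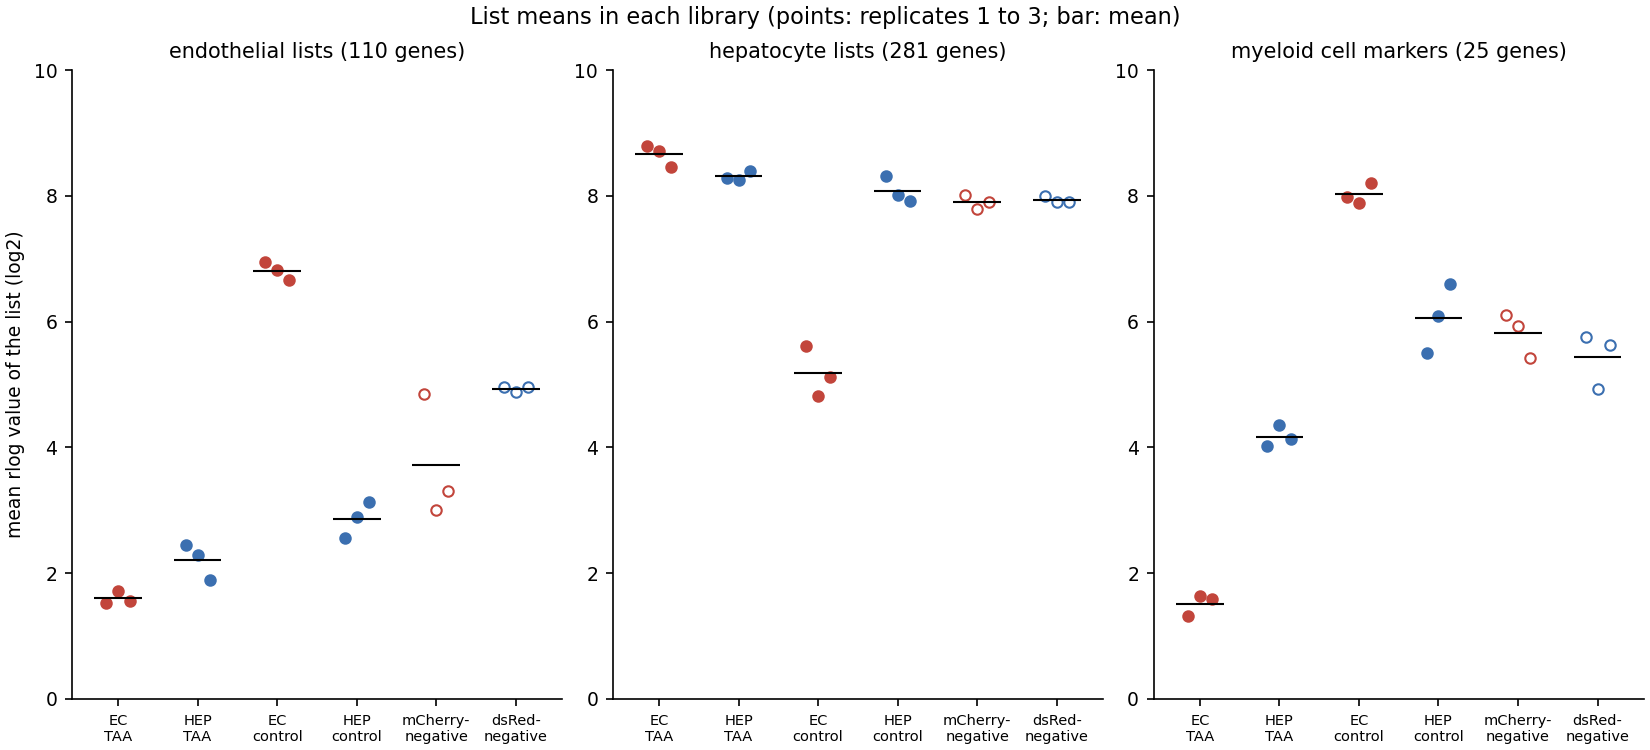
Mean rlog value (log2) of the endothelial lists (110 genes), the hepatocyte lists (281 genes) and the myeloid markers (25 genes) in each library, with points for replicates 1 to 3 and a bar for the mean. Control ECs stand apart in each panel, with endothelial means of 6.66 to 6.95, whereas the libraries labelled as TAA ECs have endothelial means of 1.52 to 1.72 and hepatocyte means above those of TAA HEPs. Open points are reporter-negative cells.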

How the data were processed

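RNA of sorted zebrafish liver cells was sequenced in 27 libraries. Per the submitters' processing notes, the tools were FastQC 0.11.8, cutadapt 1.18, STAR 2.6, SAMtools 1.9 and DESeq2. The deposited log2 values are rlog values made by the authors with DESeq2, which scales counts for library size and shrinks low counts, so count tests could not be used and depth per library is not known. Of 18336 gene identifiers, 17244 were given a symbol, from a supplementary table of the study or a gene name table, and symbols in capitals come from those tables.

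Groups were taken from the labels. limma 3.58.1 in R 4.3.3 was fitted to the 9 reporter-positive control libraries, with group means and a mean-dependent prior variance. Benjamini-Hochberg adjustment was made across the full table, with a threshold of 0.05. The TAA contrast and its interaction were fitted in the 18 reporter-positive libraries and the negative contrast in the 18 control libraries. Named genes were the reporter drivers, the 10 largest called differences without overlap in each direction, up to 4 members per list and 8 genes that the study names, and other list members were named after their values were seen. The comparison, the 29 lists and their members were chosen with earlier results of these data known. Of 755 listed entries 613 were matched. Scripts were tested on simulated data. Positive and negative control libraries of the same line and number had weakly correlated deviations (r = 0.186, 0.134 and 0.151 in the kdrl line and 0.114, 0.118 and 0.157 in the fabp10a line). These values were not set against those of differently numbered libraries, so they do not establish pairing, and the labels do not give it. Alternatives covered the libraries in the fit, variance prior, filter, scaling, replicate block and left-out libraries. Tables and figures were made with Python 3.11.15, pandas 2.3.3 and matplotlib 3.10.9. No sequences or coordinates were used here.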

Additional observations from a re-analysis of the deposited data

Results flagged for a closer look

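The contrast between mCherry-positive and dsRed-positive cells differed between TAA and control fish by the interaction test in limma, with adjusted p under 0.05 at each gene named here. The change was positive at 2927 genes and negative at 4565 genes. Among vessel genes, the TAA difference minus the control difference was -9.29 for cyp26b1, -9.03 for kdrl, -8.65 for fgd5a, -8.02 for flt1, -7.83 for notchl, -7.76 for emilin2a and -6.20 for sox18. Among genes of hepatocyte functions it was 8.62 for c7b, 7.08 for sult3st2, 6.67 for vtg6, 5.60 for cpt1b, 5.28 for pdk2a, 4.84 for hnf4b, 4.63 for apof, 4.43 for gls2b, 4.33 for serpind1, 3.86 for fabp10a and 3.75 for kl. The named genes were the reporter drivers and the gene with the largest called control difference of each endothelial or hepatocyte list. The interaction subtracts those same control values. The choice of genes thus favours changes of opposite sign, and the values are no independent evidence. The libraries labelled as TAA ECs had kdrl at 2.05, 2.64 and 2.07, against 5.62, 4.44 and 4.30 in TAA HEPs, and the part of the sort in the changes listed was not tested.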

How the results depend on the processing

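The counts for control ECs minus control HEPs were within 1.5 times of the main ones in each alternative except a filter on a mean value of at least 3, which tests fewer genes and gave 3033 higher, and leaving out 1 library gave 3818 to 4348 higher and 2601 to 2808 lower. With libraries centred on their median, the median difference was -0.129, 387 genes were higher under TAA and the interaction was negative at 2812 genes. With the filter, 341 genes were lower under TAA and the interaction was negative at 2447. Leaving out 1 library gave 138 to 245 higher and 337 to 573 lower under TAA. Between the negative groups it gave 16 to 147 higher and 9 to 264 lower, and the positive against negative contrast was 1276 to 2905 higher and 916 to 2251 lower, where each highest value is the fit without EGFP-negative replicate 3, chosen after seeing the data. Causes were not tested. Deviations of same-numbered control EC and HEP libraries had r = -0.02, -0.025 and 0.009. These values were not set against differently numbered libraries, so they cannot decide whether the numbers pair ECs with HEPs. A replicate block gave 4630 higher and 3163 lower for control ECs minus HEPs. Same-numbered positive and negative libraries of 1 line had weakly correlated deviations, which do not establish pairing. A replicate block within each line, added after seeing the data, gave 1599 genes higher and 1549 lower for the positive against negative contrast, beside 1782 and 1359. Of 1762 alternative values of named genes, 1725 kept their direction and call, 36 lost the call over 12 genes and 1 gained it (cyp51). All 266 values of the named interactions kept theirs. The rlog scale limits what can be read from genes with few reads.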
